A study of Homo sapiens with 8 samples.

Results

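The genes that make, load and regulate MHC class I molecules were followed across the 4 treatment groups of the uveal melanoma (UM) line MP38. They were chosen as 9 named rows of the count table, out of 35238 gene symbols: the heavy chains HLA-B, HLA-C, HLA-E and HLA-F, the light chain B2M, the peptide transporter subunits TAP1 and TAP2, the loading chaperone TAPBP (tapasin), and NLRC5, a regulator of class I transcription. All 9 passed the filter on low counts, which kept 15085 genes in total. MP38 is a BAP1-mutant cell line. Its cells were kept for 24 h in 0.1% DMSO alone (control), or in the same final amount of DMSO with romidepsin at 40 nM, quisinostat at 40 nM or mivebresib at 1200 nM. Romidepsin and quisinostat inhibit histone deacetylases (HDAC), whereas mivebresib is an inhibitor of the BET bromodomain proteins. Bulk RNA was sequenced from 2 wells per group of this single line, 1 library each. The p-values rest on the spread between wells, pooled over the groups, and not on that between tumors. In bulk RNA, a change in the share of cells expressing a gene and a change in RNA per cell cannot be told apart.

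Class I molecules carry peptides cut from a cell's own proteins to its surface, where CD8+ T cells read them. Proteasomes make the peptides, the TAP1 and TAP2 proteins together pump them into the endoplasmic reticulum, and tapasin holds an empty heavy chain with beta-2 microglobulin (the product of B2M) beside the pump until a peptide fits. Interferons raise most of these genes through factors such as IRF1, NLRC5 works at a conserved promoter module bound by the RFX complex, CREB/ATF and NF-Y factors, and natural killer cells read HLA-E through NKG2A.

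The libraries held 28483235 to 29359024 counts, so depth hardly differed. Of 7 melanocytic markers, 6 passed the filter on low counts, and their list summed to 3518 to 5121 counts scaled to library size (CPM) in the 8 libraries. TYRP1 made up most of that sum, with 84041 to 112687 counts. Of the 6, 0 were called higher with any drug, and the lower calls numbered 1 (romidepsin), 3 (quisinostat) and 4 (mivebresib). Of all tested genes, 15.8%, 25.1% and 24.1% were called lower with these drugs, so the romidepsin count was near that share. With a library left out these counts moved, and higher calls appeared under romidepsin and quisinostat. SOX10, a melanocyte lineage factor, had 6109 and 5527 counts in the control and 1564 and 1468 under mivebresib, and MITF, another, had 9899 and 9566 against 3396 and 3577. The part of these changes in the class I results was not tested. The leukocyte markers CD3D, CD3E, CD2 and TYROBP were at 0 counts in all 8 libraries, PTPRC (CD45) had 1 to 11 counts, and the 11 leukocyte markers together came to 0.870 to 3.20 CPM. The control libraries differed most from each other, by a root mean square of 0.469 on the log2 scale over genes, against 0.299 to 0.392 in the drug groups. The class I genes shared in this: 8 of the 9 were higher in control 2 than in control 1, by 0.23 for B2M to 0.55 for TAP2 in log2 CPM, and NLRC5 was lower by 0.37. Over all tested genes, the median of that difference was 0, and its 5th and 95th percentiles were -0.65 and 0.67.

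Promoter sequence is shown for 5 members. The heavy chains among them resemble each other there, while B2M and TAP1 carry the same kinds of motif in another arrangement. RefSeq's GRCh38.p14 promoter table held 7 of the 9 genes, the exceptions being HLA-E and NLRC5. The 250 bases before the annotated start are printed 5′ to 3′ on the strand of the gene, and capitals mark matches to 4 patterns searched on both strands: AANNGAAA (the core of interferon response elements), GGGNN directly followed by TTNCC (NF-kappaB-like), TGACG (a CRE core, as CREB and ATF factors bind) and CCAAT (the NF-Y box). The windows are chr6:31357180-31357429 on the minus strand for HLA-B, chr6:31272093-31272342 on the minus strand for HLA-C, chr6:29723184-29723433 on the plus strand for HLA-F, chr15:44711267-44711516 on the plus strand for B2M and chr6:32853705-32853954 on the minus strand for TAP1.
HLA-B: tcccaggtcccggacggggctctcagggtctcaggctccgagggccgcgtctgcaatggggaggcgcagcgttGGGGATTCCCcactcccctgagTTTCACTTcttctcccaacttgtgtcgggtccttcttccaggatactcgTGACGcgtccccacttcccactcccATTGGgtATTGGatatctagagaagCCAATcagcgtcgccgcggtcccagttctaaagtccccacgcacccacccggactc
HLA-C: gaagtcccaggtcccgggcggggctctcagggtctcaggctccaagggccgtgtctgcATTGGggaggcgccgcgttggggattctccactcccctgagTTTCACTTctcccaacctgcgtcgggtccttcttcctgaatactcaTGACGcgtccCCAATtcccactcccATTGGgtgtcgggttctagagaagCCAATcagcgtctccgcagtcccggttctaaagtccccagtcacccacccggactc
HLA-F: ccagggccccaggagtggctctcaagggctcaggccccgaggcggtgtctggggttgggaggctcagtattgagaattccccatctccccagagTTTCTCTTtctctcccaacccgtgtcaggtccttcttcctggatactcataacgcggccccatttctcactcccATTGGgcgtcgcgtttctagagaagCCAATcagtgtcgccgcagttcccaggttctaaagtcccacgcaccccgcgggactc
B2M: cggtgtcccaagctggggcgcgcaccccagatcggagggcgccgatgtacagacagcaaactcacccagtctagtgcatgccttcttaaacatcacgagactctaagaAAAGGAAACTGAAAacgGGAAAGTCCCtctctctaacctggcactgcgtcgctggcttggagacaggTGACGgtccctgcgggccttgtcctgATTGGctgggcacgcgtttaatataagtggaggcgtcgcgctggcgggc
TAP1: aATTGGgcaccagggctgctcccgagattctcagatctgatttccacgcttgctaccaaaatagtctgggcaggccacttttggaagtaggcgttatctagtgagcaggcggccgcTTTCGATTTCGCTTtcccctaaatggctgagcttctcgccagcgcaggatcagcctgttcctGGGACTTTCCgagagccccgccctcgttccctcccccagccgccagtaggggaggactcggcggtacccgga

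HLA-B and HLA-C were identical at 89% of aligned bases, HLA-B and HLA-F at 79.8%, and HLA-C and HLA-F at 78.2%. The HLA-B window held all 4 patterns, HLA-C lacked the NF-kappaB-like pattern, and HLA-F held the interferon core and CCAAT but neither the NF-kappaB-like pattern nor TGACG. AANNGAAA was present in 7 of the 7 member windows, against 20.3% of 35116 promoter windows of the same length. That count depends on the letters: a longer pattern, GAANNGAAA, had been searched first and matched 3 of 7 members (HLA-B, HLA-C and TAP2) and 6.56% of all windows, and the shorter one was taken after the member sequences had been read. The NF-kappaB-like pattern was found in 4 of 7 members (HLA-B, B2M, TAP1 and TAPBP) against 5.07% of windows, TGACG in 4 of 7 (HLA-B, HLA-C, B2M and TAP2) against 21.2%, and CCAAT in 5 of 7 against 32%. HLA-B and B2M held all 4, as did 0.0513% of windows. With the longer interferon pattern in place of the shorter, only HLA-B held all 4, as did 0.0171% of windows. In B2M, TAP1, TAP2 and TAPBP a pair of interferon core matches overlapped each other, no match overlapped one of another pattern, and a match of letters does not show that a factor binds.

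**Figure D1:**
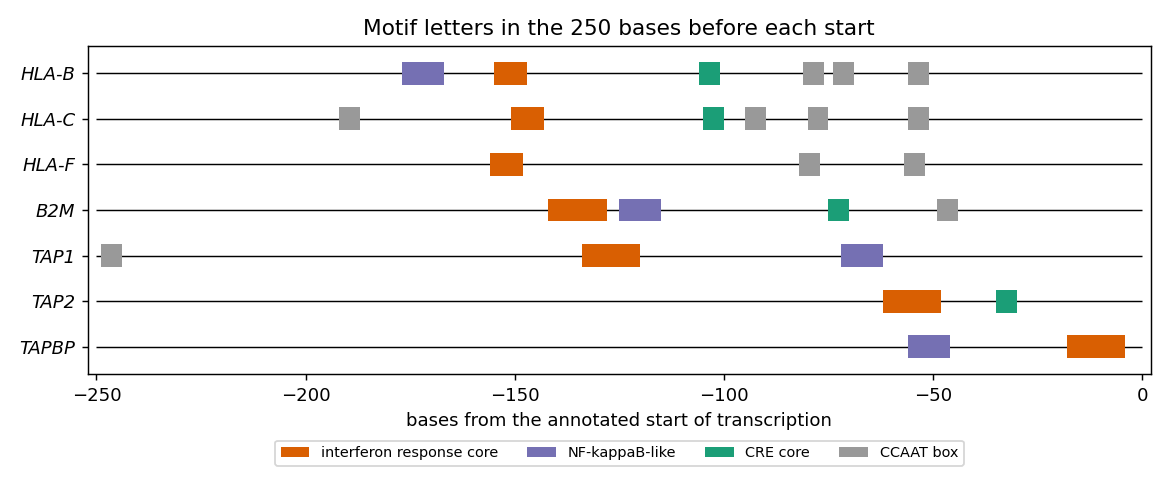
Position of the 4 letter patterns in the 250 bases before the start of the 7 members with a RefSeq window, in bases from the start; each colored box is a match on either strand. The interferon core, shown in its shorter form that matched 7 of 7, lies at -156 to -144 in the 3 heavy chains and closer to the start in TAP2 and TAPBP.

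Levels were compared between genes as TMM-scaled CPM per kilobase of transcript, and between groups as TMM-scaled CPM. B2M had the highest level per kilobase in every group, 202 ± 22.6 (SD, n = 2) in the control and 280 ± 0.0498 under mivebresib. HLA-E was next in every group, from 95.8 ± 12.6 in the control to 145 ± 9.49 under mivebresib. HLA-F and NLRC5 were the lowest in every group, with 6.30 ± 0.914 and 0.418 ± 0.0767 CPM per kilobase in the control. In the control, the neighbors TAPBP (56.5 ± 12.6), HLA-C (46.6 ± 9.40) and HLA-B (42.7 ± 7.95) overlapped in their libraries, so their order was not resolved. Under quisinostat the libraries no longer overlapped, and HLA-B (64.2 ± 1.59) stood above HLA-C (55.8 ± 1.39) and TAPBP (40.1 ± 2.53). Under mivebresib HLA-C (64.5 ± 1.43) stood above HLA-B (53.0 ± 5.87). Because the HLA genes resemble each other in sequence and vary between people, reads may have been split or lost among them by the counting. The levels of the 4 heavy chains, and their comparisons between groups, are uncertain for that reason.

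**Figure D2:**
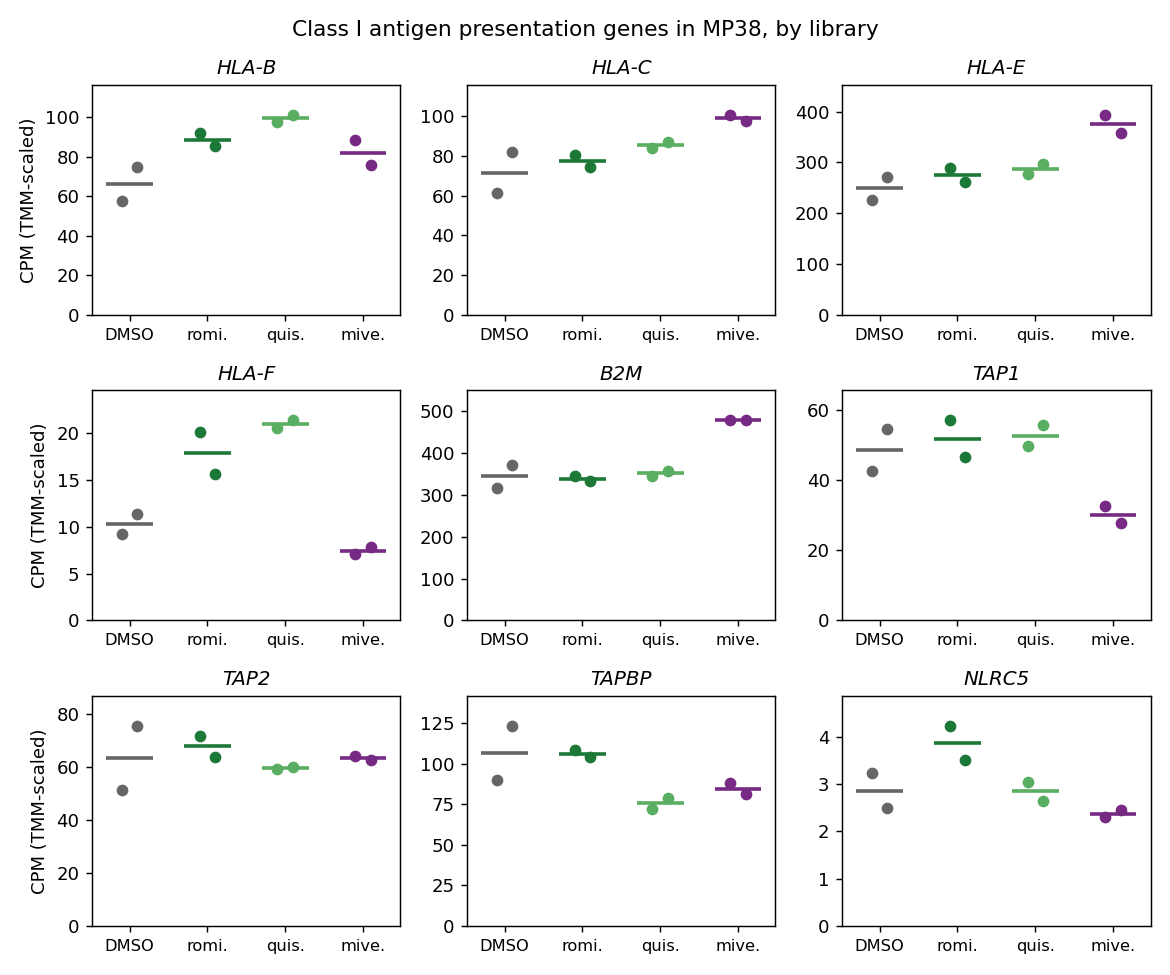
TMM-scaled CPM of the 9 class I genes in each library (points) with the mean of each group (line), for DMSO control, romidepsin, quisinostat and mivebresib; each panel has its own axis from 0. HLA-F was 20.6 and 21.4 CPM under quisinostat and 7.06 and 7.80 under mivebresib, while B2M and HLA-E were highest under mivebresib.

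Each drug was compared with the control to ask which class I genes changed with it. A gene was called at a Benjamini-Hochberg adjusted p below 0.05 in edgeR's quasi-likelihood test, and the study's further threshold of a log2 FC beyond 1.5 in either direction was passed by 0 of the 9 members with any drug. All tested genes passed it at 4.08% (romidepsin), 12.2% (quisinostat) and 8.32% (mivebresib). The 3 comparisons share the same control libraries and are not independent of each other. The test shares the spread of a gene among the 4 groups, and the control libraries differed most from each other. SEs, p-values and intervals against the control may therefore understate the spread of the control wells. A fit without 1 control library takes that gap out of the shared spread. A call gained in such a fit does not show the weight of that library alone.

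Under romidepsin, 2 of 9 members were called, both higher, and over all tested genes 31.0% were called (15.2% higher and 15.8% lower). They were the heavy chains HLA-B and HLA-F, and without control replicate 2 a total of 5 members were called, HLA-C, HLA-E and TAP2 being added. Without any 1 of the other 7 libraries the count was 1, HLA-F. The median log2 FC of the 9 members was 0.12, against -0.012 for all tested genes. Of all genes called, 49.1% were higher, a share that became 62.1% with library size alone in place of TMM scaling and 63.4% with upper-quartile factors.

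Under quisinostat, 3 of 9 members were called, beside 53.2% of all tested genes (28.0% higher and 25.1% lower). HLA-B and HLA-F rose and TAPBP fell, and without control replicate 2 the count was 5, with HLA-C and HLA-E added. The median of the members was 0.12, against -0.0036 for all genes. Quisinostat is the group where scaling matters most: with library size alone the median of all genes moved to 0.20 (0.13 with upper-quartile factors), and the share of higher genes among those called went from 52.7% to 72.4% (65.4% with upper-quartile factors). Under both of these scalings 4 of 9 members were called, namely HLA-B, HLA-C, HLA-E and HLA-F, all higher. Of all 15085 tested genes, 7769 were called with library size alone (5625 higher) and 7721 with upper-quartile factors (5048 higher). TAPBP was not called under either scaling, with log2 FC of -0.29 and -0.36.

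Under mivebresib, 5 of 9 members were called, beside 46.2% of all tested genes (22.2% higher and 24.1% lower). HLA-C, HLA-E and B2M rose, and HLA-F and TAP1 fell. The calls of HLA-C and HLA-F were lost without mivebresib replicate 1 or 2, and that of TAP1 without mivebresib replicate 2. With a library left out, log2 FC ran from 0.13 to 0.51 for HLA-B, -0.54 to -0.087 for TAPBP and -0.25 to 0.30 for TAP2. TAP2 was lowest without control replicate 1 and highest without control replicate 2. The median of the members was -0.0021, against 0.0067 for all genes, so the class I genes did not shift to one side together. A total of 4 members lay higher in both mivebresib libraries than in both control libraries and 4 lay lower, compared with 35.4% and 34.3% of all tested genes.

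**Figure D3:**
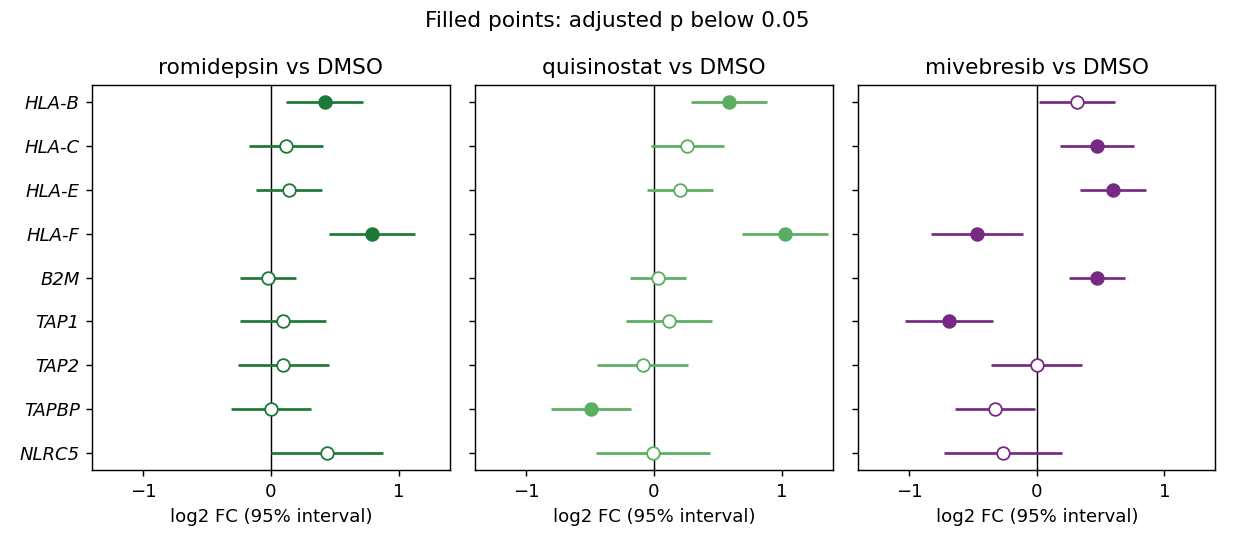
log2 FC of the 9 class I genes against DMSO in edgeR, one panel per drug, with 95% intervals (bars); filled points have an adjusted p below 0.05. Filled points are HLA-B and HLA-F under romidepsin, those and TAPBP under quisinostat, and HLA-C, HLA-E, HLA-F, B2M and TAP1 under mivebresib.

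HLA-F, a non-classical heavy chain found largely inside the cell, had the largest log2 FC of the 9 against the control, with quisinostat, and was called against the control under all 3 drugs. It lies on chr6:29722775-29738528 (plus strand, GRCh38). Its libraries held 9.25 and 11.4 CPM in the control, 20.1 and 15.6 under romidepsin, 20.6 and 21.4 under quisinostat, and 7.06 and 7.80 under mivebresib. Both HDAC inhibitor groups lay wholly above the control and the mivebresib group wholly below it. The log2 FC was 0.79 (SE 0.148, edgeR adjusted p = 0.00482) with romidepsin, 1.03 (SE 0.147, adjusted p = 0.000521) with quisinostat and -0.47 (SE 0.157, adjusted p = 0.0374) with mivebresib. The rise held with any library left out, whereas the fall under mivebresib did not: without control replicate 2 it was -0.32 (adjusted p = 0.138), without mivebresib replicate 1 -0.40 (0.165), without mivebresib replicate 2 -0.54 (0.0848), and without quisinostat replicate 1 or 2 -0.47 (0.0617 and 0.0625). The fall also missed the threshold with limma-voom (adjusted p = 0.0556), upper-quartile factors (0.0596), a filter at a mean CPM of at least 5 (0.0516) and the 4 libraries of the comparison alone (0.0645). Exons of HLA-F share 257 bases with RPL23AP1, a pseudogene on the opposite strand with 7 to 39 counts per library, and 535 bases with HLA-F-AS1. Whether the counting used strand is not given in the sources used here.

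HLA-B, a classical heavy chain, was 57.4 and 74.8 CPM in the control, 91.7 and 85.1 under romidepsin, 97.6 and 101 under quisinostat, and 88.5 and 75.6 under mivebresib. All 6 drug-treated libraries of HLA-B lay above both control libraries, although mivebresib replicate 2 did so by a narrow margin. Its log2 FC was 0.42 (SE 0.131, edgeR adjusted p = 0.0411) with romidepsin and 0.59 (SE 0.131, adjusted p = 0.00544) with quisinostat. With mivebresib it was 0.31 (95% interval 0.012 to 0.61) and was not called (adjusted p = 0.0826). Without control replicate 2 the mivebresib value was 0.51. The quisinostat rise was called with any library left out, whereas the romidepsin rise was called only when control replicate 2 was the one left out. Without the others its adjusted p was 0.0895 (control replicate 1), 0.207 and 0.1 (romidepsin replicates 1 and 2), 0.062 and 0.0625 (quisinostat replicates 1 and 2) and 0.0551 and 0.055 (mivebresib replicates 1 and 2). It was 0.0518 with no filter on low counts and 0.084 with the 4 libraries of the comparison alone. HLA-B and HLA-C share 35 exon bases on the same strand in GENCODE 29, which places HLA-B at chr6:31269491-31357188 and HLA-C at chr6:31268749-31272130, both on the minus strand.

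HLA-C, the other classical heavy chain listed, was 61.3 and 81.8 CPM in the control, 80.7 and 74.7 under romidepsin, 84.2 and 87.2 under quisinostat, and 101 and 97.5 under mivebresib. The mivebresib and quisinostat libraries lay above both control libraries, and the romidepsin libraries overlapped with them. The log2 FC was 0.47 (SE 0.126, edgeR adjusted p = 0.0151) with mivebresib, 0.26 (95% interval -0.027 to 0.55, adjusted p = 0.113) with quisinostat and 0.12 (-0.17 to 0.41, adjusted p = 0.501) with romidepsin. Without control replicate 2 the values were 0.48 for quisinostat and 0.34 for romidepsin. The mivebresib call was lost without mivebresib replicate 1 (adjusted p = 0.0797) or 2 (0.0603) and with the 4 libraries of the comparison alone (0.0507).

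HLA-E, a non-classical heavy chain whose peptides come largely from the leader sequences of other heavy chains, was 226 and 272 CPM in the control, 289 and 261 under romidepsin, 277 and 296 under quisinostat, and 394 and 359 under mivebresib. The mivebresib libraries were well above the other 6. Its log2 FC with mivebresib was 0.59 (SE 0.113, edgeR adjusted p = 0.00291), and this was called with any library left out. With romidepsin it was 0.14 (95% interval -0.12 to 0.40) and with quisinostat 0.20 (-0.056 to 0.46), neither called. Without control replicate 2 these values were 0.28 and 0.34. HLA-E lies on chr6:30489467-30494205, plus strand.

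B2M, the light chain gene, had 317 and 371 CPM in the control, 344 and 334 under romidepsin, 345 and 356 under quisinostat, and 477 and 477 under mivebresib. The HDAC inhibitor libraries lay within the range of the control, and both mivebresib libraries were above the rest. The log2 FC with mivebresib was 0.47 (SE 0.0960, edgeR adjusted p = 0.00406) and was called with any library left out. With romidepsin it was -0.022 (95% interval -0.24 to 0.20) and with quisinostat 0.029 (-0.19 to 0.25), the narrowest intervals among the members. B2M lies outside the MHC, on chr15:44711487-44718877.

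TAP1, one of the pump's subunits, was 42.6 and 54.6 CPM in the control, 57.0 and 46.6 under romidepsin, 49.7 and 55.7 under quisinostat, and 32.6 and 27.7 under mivebresib. Only mivebresib separated from the control, and it lay below it. The log2 FC was -0.69 (SE 0.151, edgeR adjusted p = 0.00592), and without mivebresib replicate 2 it was -0.58 (adjusted p = 0.0577). It was 0.093 (95% interval -0.25 to 0.43) with romidepsin and 0.12 (-0.22 to 0.45) with quisinostat. TAP1 lies on chr6:32845209-32853978 (minus strand) and shares 456 exon bases with PSMB8-AS1 on the opposite strand.

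TAP2, its partner subunit on chr6:32821833-32838780, was 51.5 and 75.6 CPM in the control, 71.8 and 64.0 under romidepsin, 59.4 and 60.1 under quisinostat, and 64.4 and 62.5 under mivebresib. The 6 drug-treated libraries all fell between the 2 control libraries. The log2 FC was 0.096 (95% interval -0.26 to 0.45) with romidepsin, -0.089 (-0.45 to 0.27) with quisinostat and -0.0021 (-0.36 to 0.36) with mivebresib, none of them called. With 1 control library the values went either way. Without control replicate 1 TAP2 was -0.34 under quisinostat and -0.25 under mivebresib. Without control replicate 2 it was 0.40 under romidepsin and 0.30 under mivebresib. TAP2 shares 2064 exon bases with AL669918.1 on the same strand.

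TAPBP (chr6:33299694-33314387), the tapasin gene, was 89.8 and 123 CPM in the control, 109 and 104 under romidepsin, 72.3 and 79.0 under quisinostat, and 87.9 and 81.7 under mivebresib. The quisinostat libraries lay below both control libraries by the widest gap. The log2 FC was -0.49 (SE 0.138, edgeR adjusted p = 0.0156) with quisinostat, and without quisinostat replicate 1 it was -0.42 (adjusted p = 0.106), with an adjusted p of 0.0605 in the fit of the 4 libraries alone. With mivebresib it was -0.33 (95% interval -0.65 to -0.015) and was not called (adjusted p = 0.0812). Without control replicate 1 the mivebresib value was -0.54. With romidepsin it was -0.0032 (-0.32 to 0.31).

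NLRC5, the class I transactivator (chr16:56989485-57083531), was the lowest of the 9, with 63 to 123 counts per library. It was 3.22 and 2.48 CPM in the control, 4.22 and 3.51 under romidepsin, 3.04 and 2.64 under quisinostat, and 2.30 and 2.45 under mivebresib. Both romidepsin libraries lay above the control and both mivebresib libraries just below it. None of the differences from the control was called: 0.44 (95% interval -0.0016 to 0.88, edgeR adjusted p = 0.117) with romidepsin, -0.0076 (-0.46 to 0.44) with quisinostat and -0.27 (-0.73 to 0.20) with mivebresib. At this depth and with 2 libraries, changes of any size within those intervals were not excluded.

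The drugs were also compared directly, to see where class I genes differed between inhibitor classes. Quisinostat and romidepsin, both HDAC inhibitors at 40 nM, differed in 1 of 9 members, beside 35.6% of all tested genes. TAPBP was lower with quisinostat, by a log2 FC of -0.49 (SE 0.138, edgeR adjusted p = 0.0243), and was no longer called without romidepsin replicate 1 (adjusted p = 0.116) or 2 (0.0817), without quisinostat replicate 1 (0.136) or 2 (0.0626), or with library size alone (-0.36, adjusted p = 0.0569). Among the genes not called, HLA-F differed by 0.23 (95% interval -0.091 to 0.55), HLA-B by 0.17 (-0.13 to 0.47) and NLRC5 by -0.44 (-0.88 to -0.011, adjusted p = 0.102). Of all genes called, 59.0% were higher with quisinostat, and 76.8% with library size alone.

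Mivebresib and romidepsin differed in 6 of 9 members, beside 48.9% of all tested genes. HLA-F was lower with mivebresib by -1.26 (SE 0.152, edgeR adjusted p = 0.000236), TAP1 by -0.78 (SE 0.151, adjusted p = 0.00289) and NLRC5 by -0.70 (SE 0.196, adjusted p = 0.0172). B2M (0.49, adjusted p = 0.00295), HLA-E (0.45, adjusted p = 0.0103) and HLA-C (0.35, adjusted p = 0.0465) were higher. HLA-F, TAP1 and B2M were called with any library left out. The count of members called went down to 3 without mivebresib replicate 1. HLA-C was called in 2 of the 8 fits with a library left out, those without a control library. It was also lost with library size alone (adjusted p = 0.0681), upper-quartile factors (0.0682), all genes kept whatever their counts (0.0618) and a mean CPM of at least 5 (0.065). HLA-E was lost without romidepsin replicate 2 (adjusted p = 0.0907) or mivebresib replicate 1 (0.0782), and NLRC5 without romidepsin replicate 1 (0.108) or mivebresib replicate 1 (0.0821) or 2 (0.0598).

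Mivebresib and quisinostat differed in 4 of 9 members, beside 57.7% of all tested genes. HLA-F had its widest difference here, a log2 FC of -1.50, just inside the study's fold threshold (SE 0.151, 95% interval -1.84 to -1.15, edgeR adjusted p = 6.38e-05), and TAP1 was lower by -0.81 (SE 0.151, adjusted p = 0.0019). B2M was higher by 0.44 (SE 0.0959, adjusted p = 0.00408) and HLA-E by 0.39 (SE 0.113, adjusted p = 0.0162). HLA-E was not called with library size alone (0.21, adjusted p = 0.12), without quisinostat replicate 1 (0.34, adjusted p = 0.117) or without mivebresib replicate 1 (0.33, adjusted p = 0.104), and the share of higher genes among all called went from 45.4% to 30.1% with library size alone. Without either control library, HLA-B (-0.27) and HLA-C (0.21) were called as well, which made 6 members, and the fit of the 4 libraries alone called both too. HLA-B was also called with library size alone (-0.46, adjusted p = 0.0114) and upper-quartile factors (-0.36, adjusted p = 0.039).

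Ratios of counts within a library do not depend on scaling, and 6 were computed for gene pairs that were picked after the values had been seen, so they are given as a description. HLA-F to HLA-E was 0.0409 and 0.0417 in the control, 0.0696 and 0.0599 under romidepsin, 0.0742 and 0.0722 under quisinostat, and 0.0179 and 0.0218 under mivebresib. TAP1 to TAP2 was 0.827 and 0.723 in the control, 0.794 and 0.729 under romidepsin, 0.836 and 0.927 under quisinostat, and 0.506 and 0.442 under mivebresib. The subunits of the pump, which work as a pair, stood at a lower TAP1 share in both mivebresib libraries than in the other 6. HLA-B to HLA-C was 0.936 and 0.915 in the control, 1.14 and 1.14 under romidepsin, 1.16 and 1.16 under quisinostat, and 0.879 and 0.776 under mivebresib. TAPBP to TAPBPL, which codes for a tapasin-related peptide editor, ran from 7.76 to 10.7 with quisinostat lowest. PSMB9 to TAP1, neighbors on chromosome 6, ran from 0.0281 to 0.155 with quisinostat highest, and its control libraries stood at 0.0673 and 0.0281.

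**Figure D4:**
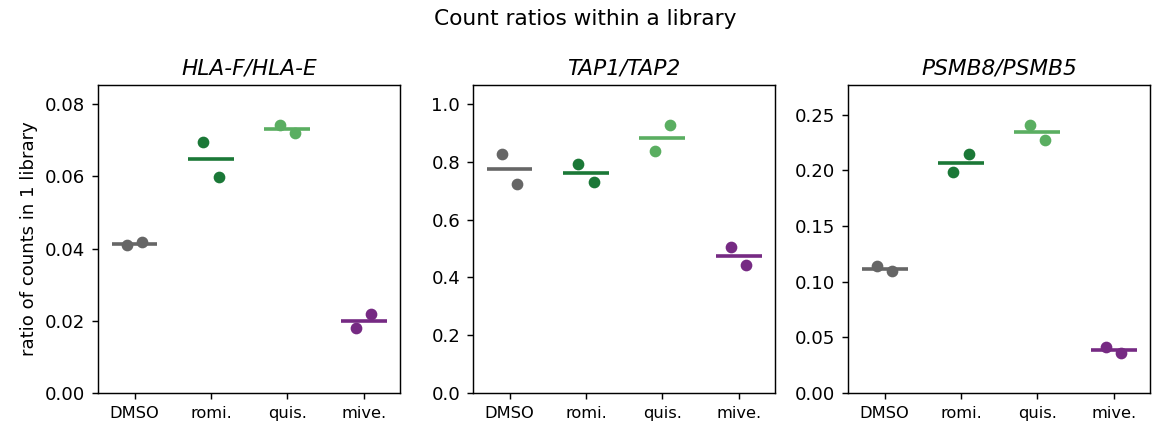
Ratio of counts within each library (points) and the mean of each group (line) for 3 of the 6 gene pairs, each axis from 0. HLA-F to HLA-E was above the control range with both HDAC inhibitors and below it with mivebresib, where TAP1 to TAP2 (0.506 and 0.442) and PSMB8 to PSMB5 (0.0414 and 0.0361) were also lowest.

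Over the 8 libraries the members fell into loose groups, described here by Pearson's r of log2 CPM; the points share groups and libraries, and no test was made. HLA-C, HLA-E and B2M varied together, with r = 0.945 for HLA-C and HLA-E and 0.939 for HLA-E and B2M. HLA-F went with TAP1 (r = 0.826), and B2M against TAP1 (r = -0.789). TAP2 went with TAPBP (r = 0.695) and little with TAP1 (r = 0.269). Among the 9673 other genes whose mean log2 CPM reached 3, those most like HLA-F were CLASP2, BVES and FKBP14 (r = 0.996, 0.993 and 0.990), and those most like B2M were LRPAP1, NPHP4 and ORMDL2 (r = 0.995, 0.995 and 0.994). For TAP1 they were HSD17B11, MTX1 and LMAN2L (r = 0.980, 0.979 and 0.975), and for the mean of the 9 members PPT1, CHST11 and SLC12A9 (r = 0.959, 0.949 and 0.948).

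The other genes of the pathway were read from fixed lists, beginning with the peptide supply. Their counts are to be read against all tested genes, of which 15.2% were called higher and 15.8% lower under romidepsin, 28.0% and 25.1% under quisinostat, and 22.2% and 24.1% under mivebresib. Of 5 immunoproteasome and PA28 genes, 1 rose and 1 fell with each HDAC inhibitor, and 3 fell with mivebresib. With a library left out, the romidepsin counts ran from 0 to 2 in each direction. PSMB8, a catalytic immunoproteasome subunit, had 478 and 384 counts in the control and 119 and 90 under mivebresib, a log2 FC of -2.03 (SE 0.174, edgeR adjusted p = 4.34e-05). PSMB9, another such subunit, rose by 1.05 with romidepsin (adjusted p = 0.0369) and 1.69 with quisinostat (adjusted p = 0.002), from 81 and 42 control counts. PSMB10, the third of them, fell by 0.59 with romidepsin, 1.00 with quisinostat and 0.64 with mivebresib. Of the 14 genes of the constitutive proteasome core, none rose and 6, 7 and 5 fell with romidepsin, quisinostat and mivebresib, with list medians of -0.27, -0.32 and -0.16. These counts moved with single libraries: without control replicate 2 they were 12, 13 and 8, without romidepsin replicate 1 the romidepsin count was 0, without quisinostat replicate 2 the quisinostat count was 4, and without mivebresib replicate 2 the mivebresib count was 0. With upper-quartile factors the mivebresib count was 2. PSMB5, the constitutive subunit that PSMB8 replaces, had a log2 FC of -0.51 with romidepsin, -0.76 with quisinostat and -0.51 with mivebresib. PSMB8 to PSMB5 in counts was 0.114 and 0.109 in the control, 0.240 and 0.227 under quisinostat, and 0.0414 and 0.0361 under mivebresib. Of 6 trimming and loading partners, 0 were called with romidepsin (4 higher without control replicate 2 and 2 lower without control replicate 1), while ERAP1, an aminopeptidase, fell with quisinostat (-0.91, adjusted p = 0.000809). With mivebresib ERAP1 (-0.50) and ERAP2 (-1.01, adjusted p = 0.00236) were lower and the chaperone CALR was higher (0.52, adjusted p = 0.0185).

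Among the factors that act on class I promoters, genes were called in both directions in each list. Of 14 interferon and JAK-STAT genes, 2 rose and 1 fell with romidepsin, 1 and 4 with quisinostat, and 3 and 4 with mivebresib; with library size alone or upper-quartile factors the quisinostat counts were 2 and 2. With mivebresib the feedback inhibitor SOCS1 rose by 2.47 (edgeR adjusted p = 0.00675) from 13 and 5 control counts, SOCS3 fell by 1.74 (adjusted p = 1.97e-05) and the receptor chain IFNGR2 fell by 1.16 (adjusted p = 0.000585). IRF1, named after its values were seen, was not called with any drug, at log2 FC of -0.069 to 0.25. Of 9 genes listed for the promoter module that NLRC5 uses, CIITA among them, 1 rose and 3 fell with romidepsin. With quisinostat 1 rose and 2 fell, and with mivebresib 2 rose and 4 fell. The 1 that rose with quisinostat was CIITA, which is not an RFX, CREB/ATF or NF-Y factor. CIITA, the class II counterpart of NLRC5, rose by 1.06 with quisinostat (edgeR adjusted p = 0.0288) from 40 and 23 control counts to 78 and 71, a call lost without control replicate 2 or either quisinostat library. ATF1 fell with all 3 drugs, by 0.66, 0.83 and 0.95, and RFXANK fell by 1.06 with mivebresib (adjusted p = 0.000972). Of 6 NF-kappaB genes, 1 rose and 4 fell with either HDAC inhibitor, with list medians of -0.30 for romidepsin and -0.49 for quisinostat, and 1 rose and 1 fell with mivebresib. With library size alone, 1 and 2 of them fell with romidepsin and quisinostat, and with a library left out the counts of lower genes reached 0 without romidepsin replicate 1 and 2 without quisinostat replicate 1. Of 7 genes of class I surface turnover, 2 rose and 2 fell with either HDAC inhibitor, and 0 rose and 3 fell with mivebresib. MARCHF9 and MARCHF4, both membrane ubiquitin ligases, rose with romidepsin (1.01 and 0.56) and quisinostat (1.03 and 0.39) and fell with mivebresib (-0.90 and -0.89). WWP2, another ubiquitin ligase, fell with all 3 drugs, by 0.44, 0.65 and 0.40, and DNAJC13 fell with romidepsin and quisinostat by 0.39 and 0.65.

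Interferon-stimulated genes outside the pathway fell more often with mivebresib than they rose: 14 of 22 fell and 2 rose, with a list median of -0.997, against 24.1% and 22.2% of all tested genes called lower and higher. Without mivebresib replicate 2, the number that fell was 5. OAS2, an antiviral enzyme, had 1251 and 616 counts in the control and 238 and 103 under mivebresib, a log2 FC of -2.43 (edgeR adjusted p = 0.00189). OAS1, a related enzyme, fell by 1.60, from 589 and 249 counts to 189 and 84, and IRF7 rose by 1.41. With the HDAC inhibitors 3 rose and 0 fell (romidepsin) and 2 rose and 4 fell (quisinostat), counts that ran with a library left out from 0 to 6 and 0 to 2 for romidepsin and from 2 to 4 and 2 to 8 for quisinostat, where UBE2L6, an ISG15-conjugating enzyme, rose by 1.11 and 1.97. Of 11 MHC class II pathway genes, 6 were tested, and HLA-DMB, a class II peptide editor, went from 4 and 7 control counts to 71 and 66 with romidepsin, 192 and 210 with quisinostat, and 29 and 21 with mivebresib. Among class I pseudogenes and antisense RNAs, 3 of 11 were tested, and HCG4 and HLA-V fell with mivebresib by 0.77 and 0.66. The summed leukocyte markers were 2.95 to 3.20 CPM in the HDAC inhibitor libraries, 1.46 and 1.89 in the control and 0.870 and 1.05 under mivebresib, an order like that of HLA-F. LCP1 made up most of that sum, with 28 and 38 counts in the control, 73 and 57 under romidepsin, 47 and 54 under quisinostat, and 8 and 16 under mivebresib. PDGFRA, which made up most of the stromal and endothelial markers, was 471 to 829 counts with the HDAC inhibitors, 354 and 555 in the control and 194 and 247 with mivebresib, while the endothelial marker CDH5 was at 0 in every library and PECAM1, another, had 2 to 17 counts. The part of such markers in the class I results was not tested.

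**Figure D5:**
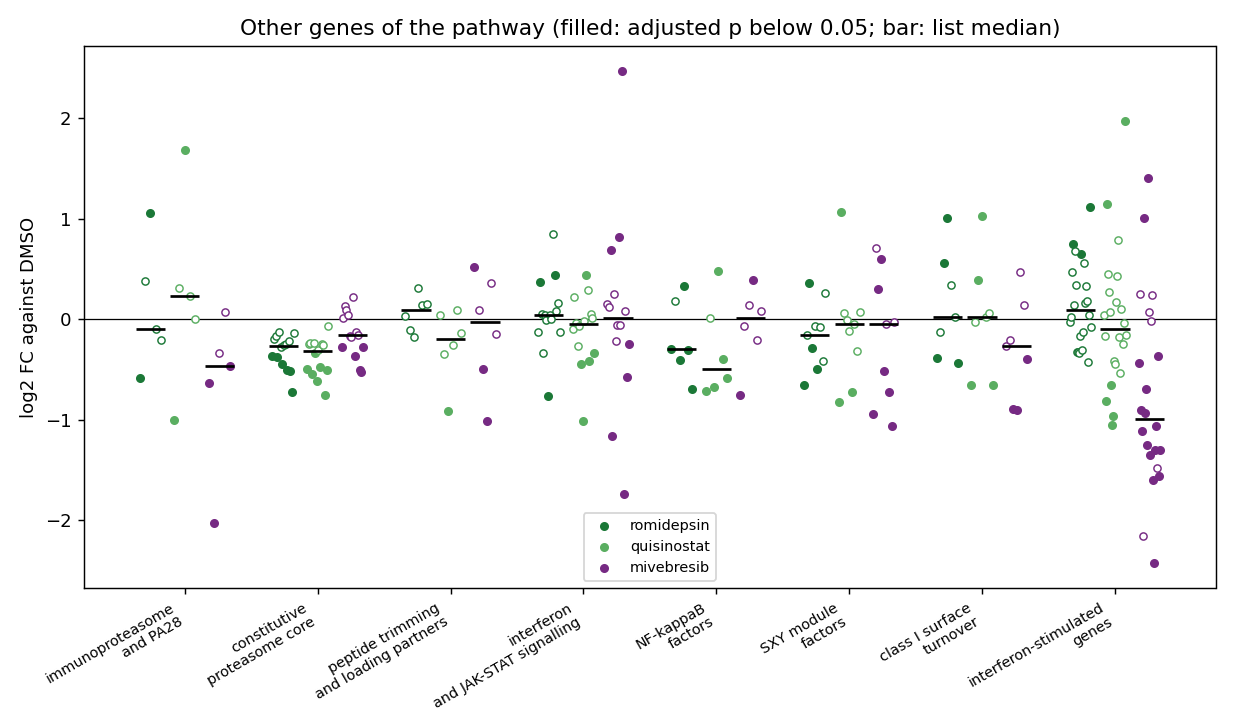
log2 FC against DMSO of every tested gene in 8 lists of the class I pathway and its regulators, by drug; filled points have an edgeR adjusted p below 0.05 and the black bar is the median of the list. The interferon-stimulated genes under mivebresib have a median of -0.997, and PSMB8 is the low point of the first list at -2.03.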

How the data were processed

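Bulk RNA from MP38 cells was sequenced by the study as strand-specific, paired-end mRNA libraries and processed through BioJupies. The authors deposited unnormalized read counts for 35238 gene symbols. A log10 table deposited by the authors equals log10(CPM + 1) of these counts, to within 4.44e-16, and served as a check alone. A quantile-normalized score deposited by the authors, on a scale that is not named, served only as an alternative. The build is hg38 per the labels. The aligner, the annotation and whether strand was used in counting are not given in the sources used here.

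Counts of all 8 libraries entered a single model in edgeR 4.0.16 (R 4.3.3; TMM scaling, filterByExpr, quasi-likelihood test), with Benjamini-Hochberg adjustment over 15085 genes and a biological coefficient of variation of 0.0938. Replicates differed by more than sampling noise, with a chi-square per degree of freedom of 58.1 in the control and 9.52 to 9.79 in the drug groups. log2 CPM used a prior count of 2. On simulated counts for quisinostat against control with 14689 genes, edgeR recovered 81% of changes of 0.75 and 100% of changes of 1.5, with 12 false calls. The simulation gave every gene in every group the same spread and changed only 100 genes at each size. The libraries meet neither condition, so these figures give no error rate for the data. Gene positions, overlaps and transcript lengths came from a GENCODE 29 annotation on GRCh38, and promoters from RefSeq (GRCh38.p14).

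The 9 members and the gene lists were chosen with earlier results of these data known. From each list up to 4 genes were named, those with the largest change against the control among genes called, and for likeness the 3 genes with the highest r for each profile, of which a part is given. Alternatives were DESeq2 1.42.0, limma-voom and limma (3.58.1) on the score, other scalings and filters, the 4 libraries of a comparison alone, a replicate block, and each library left out in turn, which leaves a lone sample assumed to vary like the other groups. Figures were drawn with Python 3.11.15 and matplotlib 3.10.9. Analyses of other cell lines and the study's own portal analyses were not used here.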

Additional observations from a re-analysis of the deposited data

How the results depend on the processing

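With 2 libraries per group, single libraries weighed on many calls, and NLRC5 and several marker genes were also low in counts. Wells with the same number did not deviate together (correlations of same-numbered libraries from -0.162 to 0.158). With 2 libraries per group, this check cannot exclude that same-numbered wells were handled together. With a replicate block 1 member was called under romidepsin in place of 2 (HLA-B was lost), and 5 in place of 6 between mivebresib and romidepsin (HLA-C was lost). The block changed no other call of a member. Outside the left-out libraries, 390 of the member values kept their direction and side of the threshold, 37 were lost, 13 were gained and 40 changed sign, and of the counts in the gene lists 601 stayed within 1.5 times of the reported count and 101 did not. With a library left out, 515 of the list counts stayed within that bound and 109 did not. With library size alone and with upper-quartile factors 3 immunoproteasome and PA28 genes in place of 1 were higher with quisinostat, and 4 in place of 7 proteasome core genes were lower there with library size alone. The fits without a filter or with a mean CPM of at least 5 changed the number of genes tested, and the latter removed NLRC5, which has no value there. The cause of the changes below was not tested.

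Members called under romidepsin numbered 1 with no filter on low counts, 1 in the fit of the 4 libraries alone and 0 on the quantile-normalized score. On that score 0 were called under quisinostat, 0 under mivebresib, 0 between quisinostat and romidepsin, 0 between mivebresib and romidepsin, and 1 between mivebresib and quisinostat (HLA-F). The share of all genes called on that score, or with a library left out, is not given here. These counts therefore show no loss or gain particular to the class I genes. The fit of the 4 libraries alone gave 3 under mivebresib and 2 between quisinostat and romidepsin. Library size alone gave 0 in the latter comparison, beside 5605 of 15085 tested genes. With a library left out, members called ran from 1 to 5 under romidepsin, 2 to 5 under quisinostat, 2 to 7 under mivebresib, 0 to 2 between quisinostat and romidepsin and 3 to 7 between mivebresib and romidepsin.

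All changes of sign were of values not called in the reported model of all 8 libraries, apart from HLA-E between mivebresib and quisinostat on the score. Under romidepsin, TAPBP came to 0.011 with DESeq2, 0.014 with limma-voom, 0.071 with library size alone, 0.082 with upper-quartile factors, 0.056 with a mean CPM of at least 5, 0.024 in the fit of the 4 libraries and 0.0058 with the replicate block. B2M came to 0.051, 0.063, 0.037 and 0.0034 with library size alone, upper-quartile factors, the mean CPM of at least 5 and the 4 libraries. Under quisinostat, TAP2 came to 0.11, 0.042 and 0.0064 with library size alone, upper-quartile factors and the mean CPM of at least 5, and NLRC5 to 0.19 and 0.12 with the 2 scalings. Under mivebresib, TAP2 came to 0.024 with limma-voom, 0.021 with library size alone, 0.045 with upper-quartile factors, 0.026 with the mean CPM of at least 5, 0.0040 in the fit of the 4 libraries and 0.0062 with the replicate block. Between quisinostat and romidepsin, TAP1 came to -0.0037 with DESeq2 and -0.016 in the fit of the 4 libraries. Between mivebresib and quisinostat, TAP2 came to -0.093 and TAPBP to -0.016 with library size alone.

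On the score, in millionths of its own unnamed scale, the differences that changed sign were -0.737 for HLA-E, 4.98 for B2M, -2.14 for TAP1 and 3.17 for TAPBP under romidepsin, 0.351 for TAP2 under quisinostat, and 2.38 for TAP2, 0.469 for TAPBP and 0.430 for NLRC5 under mivebresib. Between quisinostat and romidepsin they were -2.32 for HLA-B, -2.17 for HLA-C and -2.78 for B2M, and between mivebresib and quisinostat 1.26 for HLA-B, -1.50 for HLA-E and 6.70 for NLRC5.

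With a library left out, the values that changed sign ran under romidepsin from -0.11 to 0.095 for B2M, -0.050 to 0.34 for HLA-C, -0.061 to 0.28 for TAP1, -0.13 to 0.40 for TAP2 and -0.19 to 0.24 for TAPBP. Under quisinostat they ran from -0.084 to 0.14 for B2M, -0.19 to 0.19 for NLRC5, -0.055 to 0.30 for TAP1 and -0.34 to 0.21 for TAP2, and under mivebresib from -0.25 to 0.30 for TAP2. Between quisinostat and romidepsin they ran from -0.0074 to 0.067 for B2M, -0.024 to 0.13 for HLA-E and -0.12 to 0.17 for TAP1, and between mivebresib and romidepsin from -0.23 to 0.0026 for HLA-B.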
